A study of Arabidopsis thaliana with 9 samples.

Results

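The sRNAs described here are the shortest ones, of 18, 19 or 20 nt, that were listed from 3 hairpin precursors of the Arabidopsis halleri S-locus expressed in transgenic Arabidopsis thaliana. They were chosen by length alone and counted as distinct when their start, end, strand and sequence differed. They numbered 75 of the 272 distinct sRNAs listed (27.6%, 95% Wilson interval 22.6 to 33.2). The plants were of the A. thaliana ecotype C24 and carried Ah04mir1887, Ah20mirS3 or Ah20mirS2, and immature floral buds were collected from each genotype. The study's methods give these buds as stage 11 and younger and the Ah04mir1887 and Ah20mirS3 transgenes as homozygous, and describe the published Ah20mirS3 line as also containing the neighbouring precursor Ah20mir1887. Each genotype had 1 library of the input fraction, 1 of the AGO1-IP fraction and 1 of the AGO4-IP fraction, where the IP fractions hold RNA pulled down with an antibody against ARGONAUTE 1 or ARGONAUTE 4. The 9 libraries had no replicates. The listed sRNAs carried no read count, so the depth of a library is unknown and every sRNA weighs the same here whatever its abundance. Each sRNA was listed with a library code, 3 codes for each precursor, and no source used here ties a code to a fraction, so no test between groups was made.

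In plants, Dicer-like enzymes cut the double-stranded stem of a hairpin RNA into small RNAs, which ARGONAUTE proteins then load and use to find matching RNA or DNA. AGO1 is known to prefer small RNAs that begin with U and to act in post-transcriptional silencing, and AGO4 to prefer those that begin with A and to act in RNA-directed DNA methylation. At the S-locus, which holds the pollen ligand gene SCR and the stigma receptor gene SRK, sRNAs of a dominant allele are known to repress the SCR gene of a recessive one. Plant small RNAs can also lose bases from their ends after they are cut, and a product that lost bases from its 3' end keeps the 5' end of the longer molecule.

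The short sRNAs of Ah04mir1887 that start at position 74 of the hairpin, counted from 1 at its 5' end, are shown first because every length from 18 to 25 nt was listed from that start, each under all 3 library codes. Capitals mark the bases that lie beyond the 20-nt sRNA.
mir1887_sRNA281: tcgtactaagtagagtct
mir1887_sRNA282: tcgtactaagtagagtcta
mir1887_sRNA283: tcgtactaagtagagtctaa
mir1887_sRNA284: tcgtactaagtagagtctaaG
mir1887_sRNA289: tcgtactaagtagagtctaaGT
mir1887_sRNA292: tcgtactaagtagagtctaaGTGAA
The 3 short members differ from one another only at the 3' end, and 1 base separates them from the terminal loop, at the start of the 3' arm. In the Ah04 S-allele sequence mir1887_sRNA281 spans positions 13560 to 13577 of the plus strand.

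The counterpart in Ah20mirS3 started at position 120 and also included every length from 18 to 25 nt. It is shown with its neighbour at position 121, since the 6 short sRNAs of these 2 starts cover the same stretch shifted by 1 nt. Capitals again mark the bases beyond the 20-nt sRNA of the same start.
mirS3_sRNA180: ctttgattggttacccgt
mirS3_sRNA181: ctttgattggttacccgta
mirS3_sRNA182: ctttgattggttacccgtaa
mirS3_sRNA183: ctttgattggttacccgtaaA
mirS3_sRNA187: ctttgattggttacccgtaaAATTT
mirS3_sRNA380: tttgattggttacccgta
mirS3_sRNA381: tttgattggttacccgtaa
mirS3_sRNA382: tttgattggttacccgtaaa
mirS3_sRNA383: tttgattggttacccgtaaaA
In contrast to the series from Ah04mir1887, 4 of these 6 short sRNAs were listed only under the code AVBR-8, whereas both 21-nt sRNAs were listed under all 3 codes. The sRNAs of 18 nt, mirS3_sRNA180 and mirS3_sRNA380, were among those 4. In the Ah20 S-allele sequence the first base of mirS3_sRNA180 is at position 10320, also on the plus strand.

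In Ah20mirS2, which is read from the minus strand, no start carried more than 2 short sRNAs. The sRNAs from positions 31 and 32 are shown because they hold the short sRNA of this precursor that was listed under all 3 codes, mirS2_sRNA87. Capitals mark the first base.
mirS2_sRNA109: Ttatgtctttgtgtatatg
mirS2_sRNA110: Ttatgtctttgtgtatatgt
mirS2_sRNA86: Tatgtctttgtgtatatgt
mirS2_sRNA87: Tatgtctttgtgtatatgta
These 4 sRNAs lie on the 5' arm, where 1 to 3 bases separate them from the predicted terminal loop. The limits of this loop are uncertain, since part of it was covered by no listed sRNA. The longer sRNAs from position 31 included every length from 21 to 25 nt, and those from position 32 included 22 to 25 nt.

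Short sRNAs were present in each of the 3 precursors. Of the 95 distinct sRNAs of Ah04mir1887, 31 were short (32.6%, 24.0 to 42.6), as were 24 of the 109 of Ah20mirS3 (22.02%, 15.3 to 30.7) and 20 of the 68 of Ah20mirS2 (29.4%, 19.9 to 41.1). These 3 intervals overlap, and a difference between the precursors was not tested. The intervals cover counting error only, and overlapping sRNAs of the same hairpin are not independent. By length there were 15 sRNAs of 18 nt, 20 of 19 nt and 40 of 20 nt, against 64 of 21 nt, 42 of 22 nt and 91 of 23 to 25 nt. More than 1 in 2 of the 18-nt sRNAs, 8 of 15, came from Ah04mir1887, with 3 from Ah20mirS3 and 4 from Ah20mirS2. In Ah04mir1887 the 19-nt and 20-nt sRNAs numbered 9 and 14, in Ah20mirS3 6 and 15, and in Ah20mirS2 5 and 11.

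The Ah20mirS3 number rested on 1 library. The code AVBR-8 listed 22 of the 24 short sRNAs, and 17 of the 24 were listed under no other code (70.8%, 50.8 to 85.1). Of the 85 longer sRNAs of this precursor, 31 were listed under AVBR-8 alone (36.5%, 27.0 to 47.1). Without AVBR-8, Ah20mirS3 kept 7 short sRNAs, which made up 11.5% of those still listed. AVBR-9 and AVBR-15 listed 4 short sRNAs each, which were 10.5% (4.17 to 24.1) and 8.70% (3.43 to 20.3) of their lists, compared with 28.2% (19.4 to 39.0) for AVBR-8. The interval of AVBR-15 reached just above the lower bound of AVBR-8, and AVBR-8 also listed the most sRNAs of all lengths, 78 against 38 and 46. Whether a deeper library accounts for its short sRNAs was not tested, as the depth is unknown.

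The short sRNAs of Ah04mir1887 were spread more evenly over its codes. AVBR-5 listed 14 short sRNAs of 30 (46.7%, 30.2 to 63.9), AVBR-6 listed 15 of 45 (33.3%, 21.4 to 47.9) and AVBR-14 listed 21 of 72 (29.2%, 19.9 to 40.5). AVBR-5 thus had the highest share of short sRNAs of the 9 codes and the shortest list of its precursor, and its interval overlaps those of the other two codes. In Ah20mirS2, AVBR-2 listed 12 short sRNAs of 42, AVBR-3 listed 7 of 23 and AVBR-13 listed 6 of 29, and the shares lay between 20.7% and 30.4%. All 3 of the 18-nt sRNAs that AVBR-3 listed and the 1 that AVBR-13 listed were missing from AVBR-2, which listed no 18-nt sRNA although its list was the longest of this precursor.

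Most short sRNAs were listed under a single code. Of the 75, 53 had 1 code, 14 had 2 codes and 8 had all 3. The share with at least 2 codes was 29.3% (20.2 to 40.4), and among the 197 longer sRNAs it was 38.6% (32.1 to 45.5). In Ah04mir1887 this share was close for both classes, with 13 of 31 short and 24 of 64 longer sRNAs. In Ah20mirS3 it was 5 of 24 short (20.8%, 9.24 to 40.5) and 36 of 85 longer sRNAs (42.4%, 32.4 to 53.0), and in Ah20mirS2 4 of 20 and 16 of 48. The intervals of the classes overlap in each precursor.

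The 8 short sRNAs listed under all 3 codes of their precursor came from few places. Ah04mir1887 had 6 of them. Besides the 3 that start at position 74, these were mir1887_sRNA64 and mir1887_sRNA65, of 18 and 19 nt, which both start at position 45 on the 5' arm, and mir1887_sRNA165, of 18 nt, at positions 79 to 96. Capitals mark the first base of each of these and of the remaining 2, mirS3_sRNA200 and mirS2_sRNA87, which are both of 20 nt.
mir1887_sRNA64: Acttagattgttcttagt
mir1887_sRNA65: Acttagattgttcttagta
mir1887_sRNA165: Ctaagtagagtctaagtg
mirS3_sRNA200: Gatcaaaaccaaaaggaagt
mirS2_sRNA87: Tatgtctttgtgtatatgta
All 4 bases occur at the 5' end in this set. Every one of the 8 shared at least 1 end with a longer sRNA. For mir1887_sRNA165 that was the 3' end only, which it had in common with longer sRNAs of every length from 21 to 25 nt.

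Among all short sRNAs listed, the share with a 5' U differed between precursors, and this did not hold for those under at least 2 codes. U was the first base of 18 of the 24 short sRNAs of Ah20mirS3 (75.0%, 55.1 to 88.0) and of 12 of the 20 of Ah20mirS2 (60.0%, 38.7 to 78.1), and of 11 of the 31 of Ah04mir1887 (35.5%, 21.1 to 53.1). The intervals of Ah20mirS3 and Ah04mir1887 do not overlap. Among the short sRNAs listed under at least 2 codes, 8 of 13 in Ah04mir1887 (61.5%, 35.5 to 82.3), 3 of 5 in Ah20mirS3 (60.0%, 23.1 to 88.2) and 3 of 4 in Ah20mirS2 (30.1 to 95.4) began with U. Their intervals overlap, and a difference was not tested. As a description of what position alone gives, 36.0% of all windows of the same lengths in the covered stretches of Ah20mirS3 begin with U, as do 34.0% in Ah20mirS2 and 35.4% in Ah04mir1887. The share over all short sRNAs of Ah04mir1887 was close to that of its windows, but the share among those under at least 2 codes was above it, with an interval whose lower bound lies at the share of the windows. In the other two precursors the share over all short sRNAs was above that of the windows. A was the first base of 10 short sRNAs in Ah04mir1887, of 1 in Ah20mirS3 and of 4 in Ah20mirS2.

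The same order was not seen among the longer sRNAs, where the share with a 5' U was 37.5% (26.7 to 49.7) in Ah04mir1887, 47.1% (36.8 to 57.6) in Ah20mirS3 and 58.3% (44.3 to 71.2) in Ah20mirS2. In Ah20mirS3 the share was higher among the short than among the longer sRNAs, with intervals that overlap slightly. Over all precursors 41 of 75 short sRNAs (54.7%, 43.4 to 65.4) and 92 of 197 longer ones (46.7%, 39.9 to 53.7) had a 5' U. By length, U was first in 5 of the 15 sRNAs of 18 nt (33.3%, 15.2 to 58.3), 12 of the 20 of 19 nt and 24 of the 40 of 20 nt (60.0%, 44.6 to 73.7). The 18-nt sRNAs began with A as often as with U, 5 times each, with C 4 times and with G once.

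The library code moved with the first base. Under AVBR-8, 17 of 22 short sRNAs of Ah20mirS3 began with U (77.3%, 56.6 to 89.9), and so did 36 of its 56 longer sRNAs. Under AVBR-9, 1 of 4 short and 7 of 34 longer sRNAs began with U. Under AVBR-15, 3 of 4 short and 21 of 42 longer sRNAs began with U, so a high share among few short sRNAs was found there too. Without AVBR-8, the share among the 7 that remained was 57.1%. In Ah04mir1887, 8 of the 14 short sRNAs under AVBR-5 and 4 of the 15 under AVBR-6 began with U, and under AVBR-6 C was the most frequent first base, with 6. The part of the fraction in these differences cannot be told apart from the code, since the codes are not tied to fractions.

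Both arms of each hairpin gave short sRNAs. By the midpoint of the sRNA relative to the terminal loop, 32 of the 75 lay on the 5' arm (42.7%, 32.1 to 53.9) and 43 on the 3' arm. In Ah04mir1887 the arms held 13 and 18, in Ah20mirS3 10 and 14, and in Ah20mirS2 9 and 11, so the 3' arm held more in each of the 3 precursors by a margin within counting error. Among the longer sRNAs 95 of 197 lay on the 5' arm (48.2%, 41.3 to 55.2). The Ah20mirS2 hairpin had opposite orders for the classes, with 9 short and 29 longer sRNAs on the 5' arm and 11 short and 19 longer ones on the 3' arm. The order of the arms among the short sRNAs of Ah20mirS2 did not hold without every code: the 5' arm held 33.3% of them without AVBR-2, 8 of 16 without AVBR-3 and 56.3% without AVBR-13.

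In Ah04mir1887 and Ah20mirS3 most short sRNAs of an arm had a stretch of bases in common. On the 3' arm of Ah04mir1887, 17 of its 18 short sRNAs all covered the 7 bases at positions 82 to 88. On its 5' arm, 12 sRNAs covered positions 50 to 59. In Ah20mirS3 the deepest stretches were at positions 122 to 129 on the 3' arm, with 13 of 14 sRNAs, and 44 to 46 on the 5' arm, with 9 of 10. In Ah20mirS2 a smaller part did. At most 6 of its 9 short sRNAs on the 5' arm covered the same bases, at positions 32 to 37, and at most 7 of its 11 on the 3' arm did, at position 102. In all, short sRNAs covered 89 of the 117 bases of the Ah04mir1887 stretch, 107 of the 170 of Ah20mirS3 and 106 of the 132 of Ah20mirS2.

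Few short sRNAs reached the terminal loop. In Ah04mir1887, whose predicted loop of 5 nt lies at positions 68 to 72, 5 of 31 short and 23 of 64 longer sRNAs included at least 1 loop base. None of the 24 short sRNAs of Ah20mirS3 and none of the 20 of Ah20mirS2 did, compared with 5 of 85 and 9 of 48 longer ones. Over all precursors the share was 6.67% of the short sRNAs (2.88 to 14.7) and 18.8% of the longer ones (13.9 to 24.8). A longer molecule has more bases with which to reach a loop. In Ah20mirS3 30 bases and in Ah20mirS2 8 bases were covered by no listed sRNA and stayed unpaired in the fold. They all lie in the predicted loops, next to the 3' arm, so these 2 loops have no determined size. No listed sRNA on the 3' arms, with 14 and 11 short ones, could thus include a loop base. For these the absence was fixed by the listing, and the shares over all precursors include them. As the uncovered bases could not pair in the fold, loop contacts and distances on the 5' arms of Ah20mirS3 and Ah20mirS2 also depend on them.

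Arm and first base went together in Ah20mirS2 and less so elsewhere. On its 5' arm 8 of 9 short sRNAs began with U, and on its 3' arm 4 of 11 did, with 3 A, 3 C and 1 G. The longer sRNAs of Ah20mirS2 had the same order, with 22 of 29 on the 5' arm and 6 of 19 on the 3' arm. In Ah20mirS3, 8 of 10 on the 5' arm and 10 of 14 on the 3' arm began with U. In Ah04mir1887 it was 3 of 13 on the 5' arm, where A was first in 5 and G in 4, and 8 of 18 on the 3' arm, where no short sRNA began with G. Because sRNAs from the same start share their first base, these counts rest on few independent starts: the 31 short sRNAs of Ah04mir1887 had 19 distinct 5' ends, the 24 of Ah20mirS3 had 16 and the 20 of Ah20mirS2 had 16.

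The ends of the short sRNAs were next compared with those of the longer ones of the same precursor. Of the 75 short sRNAs, 63 had the 5' end of a listed sRNA of at least 21 nt (84.0%, 74.1 to 90.6) and 52 had the 3' end of one (69.3%, 58.2 to 78.6). At least 1 end was shared by 72 (96.0%, 88.9 to 98.6). These 72 lay wholly within a longer sRNA, which follows from the shared end and the lengths compared, and no other short sRNA did. Both ends were shared by 43, by definition each end with a different longer sRNA, the 5' end only by 20 and the 3' end only by 9. Whether a short sRNA with a shared end was trimmed from the longer one or cut from the hairpin at that length was not tested, since the lists do not tell which was made first.

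By precursor, the 5' end was shared by 24 of 31 short sRNAs in Ah04mir1887 (77.4%, 60.2 to 88.6), 22 of 24 in Ah20mirS3 (91.7%, 74.2 to 97.7) and 17 of 20 in Ah20mirS2 (85.0%, 64.0 to 94.8). The 3' end was shared by 74.2%, 75.0% and 55.0%. All 24 short sRNAs of Ah20mirS3 shared at least 1 end, as did 29 of 31 in Ah04mir1887 and 19 of 20 in Ah20mirS2. Among all short sRNAs listed, shared 5' ends outnumbered shared 3' ends in each precursor, by 1 sRNA in Ah04mir1887, 4 in Ah20mirS3 and 6 in Ah20mirS2. In the last of these AVBR-2 decided the level: without it, 12 short sRNAs remained, of which 50.0% shared the 5' end, 33.3% the 3' end and 66.7% either. In Ah04mir1887 the share with the 3' end of a longer sRNA was 52.2% without AVBR-14. The order of the ends in this precursor held without AVBR-6 or AVBR-14, but without AVBR-5 each end was shared by 21 of 27. The ends were also equal with 18 and 19 nt only (14 of 17) and with longer sRNAs of 21 or 22 nt only (22 of 31). With ends within 1 nt, 28 of 31 shared the 5' end and 29 the 3' end.

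Shared ends were frequent among the listed sRNAs in general. Each of the 197 longer sRNAs was compared with the others of at least 21 nt, and 139 shared the 5' end (70.6%, 63.8 to 76.5), 126 the 3' end (64.0%, 57.0 to 70.3) and 172 either (87.3%, 81.9 to 91.3). The comparison is not quite alike, since a longer sRNA could match one shorter than itself and a short sRNA could not. The intervals of the short and the longer sRNAs overlap for each of these 3 measures. In Ah20mirS2, where 33 of 48 longer sRNAs shared an end with another (68.8%), the short sRNAs lay furthest above the longer ones. Of all windows of 18 to 20 nt in the covered stretches, 49.3% in Ah04mir1887, 64.4% in Ah20mirS3 and 65.5% in Ah20mirS2 had an end of a listed longer sRNA. The dense lists thus give many positions an end to share. In the same order of precursors, a shared 5' end was found in 32.4%, 40.8% and 36.7% of the windows and a shared 3' end in 32.4%, 46.6% and 41.3%.

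Where the 5' end was shared, the closest longer sRNA was usually 1 to 3 nt longer. Among the 63 such short sRNAs it was 1 nt longer for 27, 2 nt for 17 and 3 nt for 13, and 4 to 6 nt for the remaining 6. Among the 52 with a shared 3' end it was 1 nt longer for 20, 2 nt for 14 and 3 nt for 11. These differences follow in part from the lengths compared, since a 20-nt sRNA can be 1 nt shorter than a listed one and an 18-nt sRNA at least 3 nt shorter. In Ah20mirS3, 12 of the 22 with a shared 5' end differed from the closest longer sRNA by a single 3' base. The library codes of the short sRNAs and of the longer ones with a shared end were also compared. For 68 of the 75 short sRNAs (90.7%, 82.0 to 95.4) a longer sRNA with a shared end was listed under a code that also listed the short one, in 29 of 31, 24 of 24 and 15 of 20 cases by precursor. This share is not set against one for the longer sRNAs. Many ends were shared with several longer sRNAs, which gives more codes to match.

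The 3' ends of Ah04mir1887 gave 1 full series of their own. All lengths from 18 to 25 nt ended at position 91, and 3 of them were short. Capitals mark the bases that lie before the start of the 20-nt sRNA, and the sequences are shown because this is the only 3' end of the 3 precursors with every length.
mir1887_sRNA281: tcgtactaagtagagtct
mir1887_sRNA167: ctcgtactaagtagagtct
mir1887_sRNA293: tctcgtactaagtagagtct
mir1887_sRNA329: Ttctcgtactaagtagagtct
mir1887_sRNA206: GGTGTtctcgtactaagtagagtct
The 18-nt mir1887_sRNA281 was thus the shortest member of a complete series at each of its ends. The codes differed between the series. All 8 sRNAs that start at position 74 were listed under 3 codes, whereas of those that end at position 91 the 3 short ones were listed under 3, 2 and 2 codes and the 22-nt to 25-nt ones under 1 code each.

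Another complete series started at position 45 on the 5' arm of Ah04mir1887. Its members of 18 and 19 nt, mir1887_sRNA64 and mir1887_sRNA65, were listed under all 3 codes, and the 20-nt mir1887_sRNA66 under AVBR-6 and AVBR-14. The 21-nt member was listed under all 3 codes and the 22-nt member under AVBR-6 only. In Ah20mirS3 the start at position 30 on the 5' arm held 3 short sRNAs as well, mirS3_sRNA346, mirS3_sRNA347 and mirS3_sRNA348, with longer sRNAs of 21 and 22 nt and none of 23 to 25 nt. Capitals mark the base beyond the 20-nt sRNA.
mirS3_sRNA346: ttgcaagtaaccgatcaa
mirS3_sRNA347: ttgcaagtaaccgatcaaa
mirS3_sRNA348: ttgcaagtaaccgatcaaaa
mirS3_sRNA349: ttgcaagtaaccgatcaaaaC
The 2 shorter ones were listed under AVBR-8 alone, the 20-nt one under AVBR-8 and AVBR-15 and the 21-nt one under all 3 codes. This order of codes from 18 to 21 nt, with fewer for the shortest sRNAs, was also seen at position 121 of the same hairpin. It was not seen at positions 45 and 74 of Ah04mir1887. At position 120 of Ah20mirS3 the 19-nt sRNA had 2 codes and the 20-nt one 1. Few codes were not limited to short sRNAs: the 22-nt sRNA from position 30 and the 24-nt one from position 121 were also listed under AVBR-8 alone.

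Only 3 short sRNAs shared neither end with a longer one, and these 3 lay within no longer listed sRNA. Capitals mark their first base.
mir1887_sRNA238: Taaaagtaacttgttcactt
mir1887_sRNA81: Agaagatcattttaaatatt
mirS2_sRNA60: Gtatatatgggtaatgac
The 20-nt mir1887_sRNA238 lay at positions 29 to 48 on the 5' arm and was listed under AVBR-5 and AVBR-14. The 20-nt mir1887_sRNA81 lay at positions 98 to 117 and formed the 3' end of the rebuilt hairpin, and it was listed under AVBR-14 only. The 18-nt mirS2_sRNA60 lay at positions 65 to 82 on the 3' arm and was listed under AVBR-13 only. The predicted loop ends directly before it because the bases there were covered by no listed sRNA. With ends allowed to differ by 1 nt, the 5' end was shared by 90.3% and the 3' end by 93.5% of the short sRNAs of Ah04mir1887, and all 20 of Ah20mirS2 shared an end.

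Over the 3 precursors together, A was more often the last base of short than of longer sRNAs. A was the last base of 31 of the 75 short sRNAs (41.3%, 30.9 to 52.6) and of 48 of the 197 longer ones (24.4%, 18.9 to 30.8), intervals that meet without overlapping. A made up 35.9% of the covered bases of Ah04mir1887, 35.0% of those of Ah20mirS3 and 33.1% of those of Ah20mirS2. These shares lie within the interval of the short sRNAs and above that of the longer ones. Among sRNAs under at least 2 codes it was 8 of 22 short and 16 of 76 longer ones, with intervals that overlap (19.7 to 57.0 and 13.4 to 31.5). The intervals also overlap when AVBR-5, AVBR-6, AVBR-8, AVBR-9, AVBR-13 or AVBR-15 is left out. U was last in 22 short (29.3%, 20.2 to 40.4) and 80 longer sRNAs (40.6%, 34.0 to 47.6). In Ah20mirS3, 13 of 24 short (54.2%) and 17 of 85 longer sRNAs ended with A, and the series from positions 30, 120 and 121 printed above contribute several of these ends. Without AVBR-8, 6 of the 7 short sRNAs left in Ah20mirS3 ended with A. In Ah04mir1887, 12 of 31 short (38.7%) and 17 of 64 longer sRNAs (26.6%) did, with overlapping intervals, and in Ah20mirS2 6 of 20 short (30.0%) and 14 of 48 longer ones (29.2%), which are nearly equal shares. No short sRNA of Ah04mir1887 ended with C.

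The short sRNAs were then searched in the A. thaliana reference TAIR10.1 (RefSeq copy), which is a newer release than the TAIR10 used for the authors' mapping. Of the 31 from Ah04mir1887, 23 matched exactly and 5 more with 1 mismatch, each at 1 site. All 28 sites lay on the plus strand of chromosome 4 between positions 11370253 and 11370321 and overlapped the microRNA gene MIR1887 (AT4G07005), annotated at 11370263 to 11370325. The sequence of the 23 exact matches cannot tell the transgene from this locus of the reference, and which of them they came from was not tested. Only the reference was searched, so whether the C24 plants carry the same sequence at this locus is not known here. None of the short sRNAs of Ah20mirS3 or Ah20mirS2 matched exactly. With 1 mismatch, 6 of the 24 of Ah20mirS3 matched, all between 11370504 and 11370532 of the same chromosome, where no gene is annotated and which lies between MIR1887 and MIR867 (AT4G21362). Of these 6, mirS3_sRNA238 matched the minus strand and the remaining 5, with mirS3_sRNA380, mirS3_sRNA381 and mirS3_sRNA382 among them, the plus strand. No site was found on another chromosome or elsewhere on this one, and the authors had removed reads that mapped to the A. thaliana genome outside its masked S-locus, so the lists were already poor in such sRNAs.

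The mature microRNA annotated in MIR1887 spans 11370301 to 11370321, which corresponds to positions 77 to 97 of the Ah04mir1887 hairpin. It differs from the hairpin by 1 base, T95A, with the hairpin's base first and the position counted along the hairpin, and that base is the capital in the first sequence. The short sRNAs that start at its first base are shown beneath it, with capitals at the bases beyond the 20-nt sRNA in the last.
annotated mature microRNA of MIR1887: tactaagtagagtctaagAga
mir1887_sRNA246: tactaagtagagtctaag
mir1887_sRNA253: tactaagtagagtctaagt
mir1887_sRNA254: tactaagtagagtctaagtg
mir1887_sRNA255: tactaagtagagtctaagtgA
Of the 31 short sRNAs of Ah04mir1887, 15 had a site that overlaps the annotated mature sequence, 6 lay within it, these 3 started at its first base and 1 ended at its last. The 3 were each listed under AVBR-5 and AVBR-14, and the 21-nt mir1887_sRNA255 under all 3 codes. The 18-nt mir1887_sRNA246 ends before position 95 and does not include the base that differs, and it was accordingly an exact match to the A. thaliana reference.

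The length itself limits how such an sRNA can score against a target under the scheme in the study's methods, in which a paired base adds 1, a wobble adds -0.5, a mismatch adds -1 and a sum of 18 is the threshold. An sRNA of 18 nt reaches 18 only when every base pairs. One of 19 nt may leave 1 end base unaligned, but with a mismatch inside the aligned stretch it scores 17 and with a wobble 17.5. One of 20 nt scores 18 with 1 mismatch and 18.5 with 1 wobble. In Ah04mir1887 17 of the short sRNAs had 18 or 19 nt, and in Ah20mirS3 and Ah20mirS2 9 each did, and these could therefore carry no mismatch or wobble within the pairing, whereas a 24-nt sRNA may carry 3 mismatches or 4 wobbles. SCR sequences were not used here, so no target was scored.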

How the data were processed

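Small RNAs of the 3 fractions were selected by size on an acrylamide gel, prepared with the TruSeq Small RNA kit and sequenced as 75-bp single reads. TrimGalore was used by the authors for trimming and size selection, and ShortStack for mapping with 1 mismatch allowed. The targets were TAIR10, its S-locus masked, and the matching S-allele, and only reads specific to the S-locus were retained. These steps are described for Ah04mir1887 and Ah20mirS3 and were taken to hold for Ah20mirS2. Tool versions are not given in the sources used here, and the submitters' processing notes also name FastQC and Bowtie. The deposited values are other than abundances: for each sRNA, its position, length, strand and sequence, with a library code and no read counts. The names carry numbers up to 332 for Ah04mir1887, where 95 distinct sRNAs are listed, and the study describes a larger database that also includes sRNAs sequenced earlier, some from A. halleri, which were not analysed here.

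Start positions count from 0 in the files and from 1 here. Hairpins were rebuilt from overlapping sRNAs, with uncovered bases unknown, and folded with RNAfold (ViennaRNA 2.7.2). Library codes are not tied to fractions and have no counts, so each share has a 95% Wilson interval for counting error alone and no test was run. Genome sites were searched on both strands with at most 1 mismatch. Python 3.11.15, pandas 2.3.3, numpy 2.4.6 and scipy 1.17.1 were used. The loop and end scripts were tested on simulated data. Named sRNAs were those under all 3 codes, those sharing neither end with a longer sRNA, and those at the ends with the most short sRNAs, and longer sRNAs were named for comparison at those ends. The 3' end at position 91 of Ah04mir1887 and the last bases were singled out after their values were seen. Members and lists were chosen with earlier results of these data known. Alternatives were a minimum of 2 codes, each code left out, 18 and 19 nt only, the arm by the 5' end, ends within 1 nt, longer sRNAs of 21 or 22 nt only or of the same code, and 1 mismatch in the genome search. Those for the last base were chosen after seeing the data.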

Additional observations from a re-analysis of the deposited data

How the results depend on the processing

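No direction of a result was tested, because the codes are not tied to fractions and carry no counts. The values below lay outside the interval of the main value or, for numbers of sRNAs, well away from the main number. With at least 2 codes required, 13, 5 and 4 short sRNAs remained in Ah04mir1887, Ah20mirS3 and Ah20mirS2. In Ah04mir1887, 61.5% then had a 5' U, which ended the difference from Ah20mirS3 (60.0%), and 53.8% shared the 3' end. In Ah20mirS3 the short sRNAs made up 12.2% of the list and 100% shared the 5' end. In Ah20mirS2, 75.0% lay on the 5' arm, 100% shared the 5' end, 0 the 3' end and 100% either. With 18 and 19 nt only, the numbers were 17, 9 and 9 and the shares of the list 17.9%, 8.26% and 13.2%, and 100% of those of Ah04mir1887 shared an end. With ends within 1 nt, the 5' and 3' ends were shared by 90.3% and 93.5% in Ah04mir1887 and by 95% and 85.0% in Ah20mirS2, where either was shared by 100%. With a longer sRNA of the same code, the 5' end was shared by 60.0% and either end by 75.0% in Ah20mirS2. With 1 mismatch, 6 sRNAs of Ah20mirS3 matched the genome. The arm by the 5' end and longer sRNAs of 21 or 22 nt only moved none of their 3 and 9 values.

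When the codes were left out one at a time, short sRNAs numbered 23 to 27 in Ah04mir1887, 7 to 24 in Ah20mirS3 and 12 to 16 in Ah20mirS2, and their share of the list 30.9% to 39.0%, 11.5% to 23.8% and 27.1% to 29.3%. In the same order, a 5' U was found in 37.0% to 44.0%, 57.1% to 77.3% and 58.3% to 62.5%, and the 5' arm held 37.0% to 44.0%, 40.9% to 42.9% and 33.3% to 56.3%. The 5' end was shared by 72.0% to 78.3%, 87.5% to 100% and 50.0% to 87.5%, the 3' end by 52.2% to 77.8%, 71.4% to 77.3% and 33.3% to 62.5%, and either by 92.0% to 95.7%, 100% and 66.7% to 100%. For the last base, chosen after seeing the data, the share with A among the short sRNAs under at least 2 codes was 23.1% in Ah04mir1887 and 80.0% in Ah20mirS3, and among the longer ones of Ah20mirS2 12.5%. With codes left out it was 37.7% to 43.3% of all short and 22.5% to 25.9% of all longer sRNAs, and 50.0% to 85.7% of the short ones of Ah20mirS3. The cause of these changes was not tested beyond the smaller number of sRNAs left.

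No paired analysis was possible because the library codes in the lists are tied to no fraction, so the libraries of different precursors cannot be matched. The unknown depth limits every statement that an sRNA was not listed under a code.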
